A study of Mus musculus with 66 samples.

Results

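The genes of cholesterol and fatty acid synthesis were followed in mouse neural progenitors that had been differentiated in culture from embryonic stem (ES) cells toward the ventral spinal cord. Their 30 member symbols were looked up in the deposited table of 24410 genes, and all 30 were found and passed the filter on low values. They fall into a sterol branch of 22 genes and a fatty acid branch of 8 genes, which are described apart. RNA had been measured in 66 libraries of polyadenylated RNA, each from a population of 10000 to 15000 fixed, stained and sorted cells.

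Cholesterol is built from acetyl-CoA through the mevalonate pathway to squalene, which is closed into lanosterol and then trimmed and reduced step by step in the endoplasmic reticulum. Fatty acids are built from the same acetyl-CoA by carboxylation to malonyl-CoA, chain synthesis, elongation and desaturation. Transcription of both sets is driven by the sterol regulatory element-binding proteins, of which Srebf2 acts mainly on sterol genes and Srebf1 mainly on fatty acid genes, and the INSIG proteins hold these factors back in the membrane when sterols are plentiful. Nervous tissue makes nearly all of its own cholesterol, and glial cells are a main site of that synthesis.

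The genotypes are called MUT and WT in the labels, which do not name the altered gene or say how many clones were used. All cells had been grown in bFGF, then in the GSK3 inhibitor CHIR99021, then in retinoic acid with the Smoothened agonist SAG, and from day 5 in SAG without retinoic acid. Cells were collected on days 5, 7, 9 and 11 (D5 to D11) and sorted as p1 (the design text says p0-p1), p2 or pM (pMN in the design text), with a further gate on the transcription factor NFIA. The 29 MUT libraries were all NFIA-negative (NFIAn) and numbered 9 on D5, 9 on D7, 5 on D9 and 6 on D11. The 37 WT libraries were NFIAn on D5 (8 libraries), D7 (9) and D9 (8), and NFIA-positive (NFIAp) on D9 (6, p2 and pM only) and D11 (6). On D11 genotype and gate therefore cannot be told apart. Of the 26 groups of genotype, day, domain and gate, 15 held 3 libraries, 10 held 2 and MUT D9 p2 held 1, and the labels do not say whether replicates came from separate cultures, so p-values may measure technical spread only.

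Levels are the authors' normalised read counts, that is reads per gene divided by a size factor of each library. Recovered reads per library ran between 8.738 M and 30.83 M, with a median of 24.33 M (M, mega-reads). Differences are log2(normalised count + 1), as a mean over the domains present in both groups, with the standard error (SE) and the Benjamini-Hochberg adjusted p of limma over all 15714 genes tested; a gene was called at an adjusted p under 0.05. On D11 the p1 marker Dbx1 and the pM marker Olig2 went with the labels. Dbx1 had 11900 and 13700 normalised counts in MUT D11 p1 and 3260 and 6030 in WT D11 p1. It stayed between 69.6 and 477 in the pM libraries of D11. Olig2 had 658 to 2430 in those pM libraries and at most 46.2 in p1. Summed p2 markers averaged 1920 in p2, 855 in p1 and 593 in pM of WT D11, and 2830, 917 and 643 in MUT D11. On D5 these p2 sums did not go with the labels. They averaged 1590 in p2, 2640 in p1 and 1540 in pM of WT, and 1790, 2620 and 1290 in MUT. The share of well-measured genes more than 4-fold from the rest of their group was 0.45% to 6.32% per library, with a median of 1.15%. It was highest in WT D7 pM replicate 3, and was 4.87% between the 2 WT D11 p1 libraries and 2.66% to 4.51% in the other 5 D7 replicate 3 libraries. Counts of called members that leaned on such libraries are given with and without them. The summed normalised counts of a library, which unlike its reads depend on the size factor, were 26.59 M to 40.23 M in 18 libraries of D7 and D9, every D7 replicate 3 among them, and at most 25.5 M in the rest. These 18 are called the libraries of high normalised total. Fits without these 18 have fewer libraries in each D7 and D9 group, and MUT D9 p2 drops out of them. Whether fewer calls in such fits follow from the totals or from the lost libraries was not tested.

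The promoters of 4 members are printed below with their matches to the motifs searched. The first are Hmgcs1, the entry enzyme, and Lss, the sterol gene that fell most between D5 and D11 in WT. The others are Hsd17b7, one of the genes that stood higher in MUT on D11, and Fasn of the fatty acid branch. CCAAT boxes are bound by the factor NF-Y, a known partner of the SREBP factors, and are searched as CCAAT on both strands. The sterol regulatory element was searched as TCACNCCAC and the E box as CACGTG, also on both strands. The sequences are RefSeq's for GRCm38.p6, run 5′ to 3′ on the strand of the gene, end at or just before the first transcribed base and have the matches in capitals; they lie at chr13:119690101-119690350 (plus strand), chr10:76531355-76531587 (plus), chr1:169969242-169969455 (minus) and chr11:120824548-120824797 (minus).
Hmgcs1: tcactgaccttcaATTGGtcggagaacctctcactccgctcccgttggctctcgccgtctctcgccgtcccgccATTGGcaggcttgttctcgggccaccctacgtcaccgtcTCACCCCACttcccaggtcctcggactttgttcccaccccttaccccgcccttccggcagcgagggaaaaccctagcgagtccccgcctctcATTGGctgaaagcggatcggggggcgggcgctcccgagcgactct
Lss: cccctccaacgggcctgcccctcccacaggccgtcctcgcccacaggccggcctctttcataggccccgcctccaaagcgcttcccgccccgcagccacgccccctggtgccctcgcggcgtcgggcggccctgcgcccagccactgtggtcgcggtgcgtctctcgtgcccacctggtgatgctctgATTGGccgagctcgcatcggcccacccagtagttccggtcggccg
Hsd17b7: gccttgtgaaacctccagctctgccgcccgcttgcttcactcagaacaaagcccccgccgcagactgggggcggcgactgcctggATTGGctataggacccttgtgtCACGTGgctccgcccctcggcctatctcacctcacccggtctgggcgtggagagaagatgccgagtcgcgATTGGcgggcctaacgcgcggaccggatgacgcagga
Fasn: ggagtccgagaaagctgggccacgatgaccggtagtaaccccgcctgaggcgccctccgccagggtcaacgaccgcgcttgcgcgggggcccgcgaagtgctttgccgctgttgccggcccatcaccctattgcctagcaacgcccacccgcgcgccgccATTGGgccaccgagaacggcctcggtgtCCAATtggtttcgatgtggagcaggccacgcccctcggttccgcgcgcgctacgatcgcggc
Of the members, 24 had a RefSeq promoter entry; Fdps, Fdft1, Sqle, Stard4, Scd1 and Scd2 had none in the table used. In the 250 bases before the start, a CCAAT box was present in 17 of 18 sterol genes (94.4%) and in 3 of 6 fatty acid genes (50%), against 37.5% of 27025 genes in all. The fatty acid genes with one were Fasn, Acss2 and Srebf1, and the sterol gene without one was Acat2. The sterol regulatory element, in these strict letters, was found in 1 sterol gene, Hmgcs1, 137 bases before the start, and in 1.22% of all genes. The E box was found in 4 sterol genes (Hsd17b7, Sc5d, Dhcr7 and Insig1), in none of the 6 fatty acid genes and in 6.86% of all genes. No overlap between different motifs occurred in the 4 printed windows. These matches are descriptions of letters and not of bound sites.

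The summed level of the sterol branch had its highest mean on D9 in MUT; in WT its means on D7 and D9 differed by less than their spread, and on D11 it averaged higher in MUT than in WT. It averaged 110000 ± 7500 normalised counts on D5, 138000 ± 16000 on D7, 162000 ± 12200 on D9 and 136000 ± 14000 on D11 in MUT (SD over 9, 9, 5 and 6 libraries). In WT it averaged 113000 ± 9030 on D5, 149000 ± 15700 on D7, 153000 ± 10200 in NFIAn and 143000 ± 10300 in NFIAp cells of D9, and 97100 ± 18200 on D11. The 6 MUT D11 libraries ran between 114000 and 151000 and the 6 WT D11 libraries between 77800 and 122000, so that the ranges overlapped at their edges. Sums are led by the most abundant members, Fdps, Msmo1 and Acat2, so the genes are taken one by one below. Of the 22 sterol genes, 14 had their highest mean on D9 in MUT and 14 in WT, with the NFIAn cells standing for D9, and 6 were lowest on D11 in MUT against 16 in WT. The WT tally holds for that gate. In D9 NFIAp cells Fdps averaged 27100 normalised counts, Fdft1 9890 and Msmo1 23400, against 28200, 10800 and 25000 on D7. These D9 NFIAp means cover p2 and pM only, whereas the D7 means also include p1. In bulk populations, fewer cells of a type and less RNA per cell cannot be told apart.

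**Figure D1:**
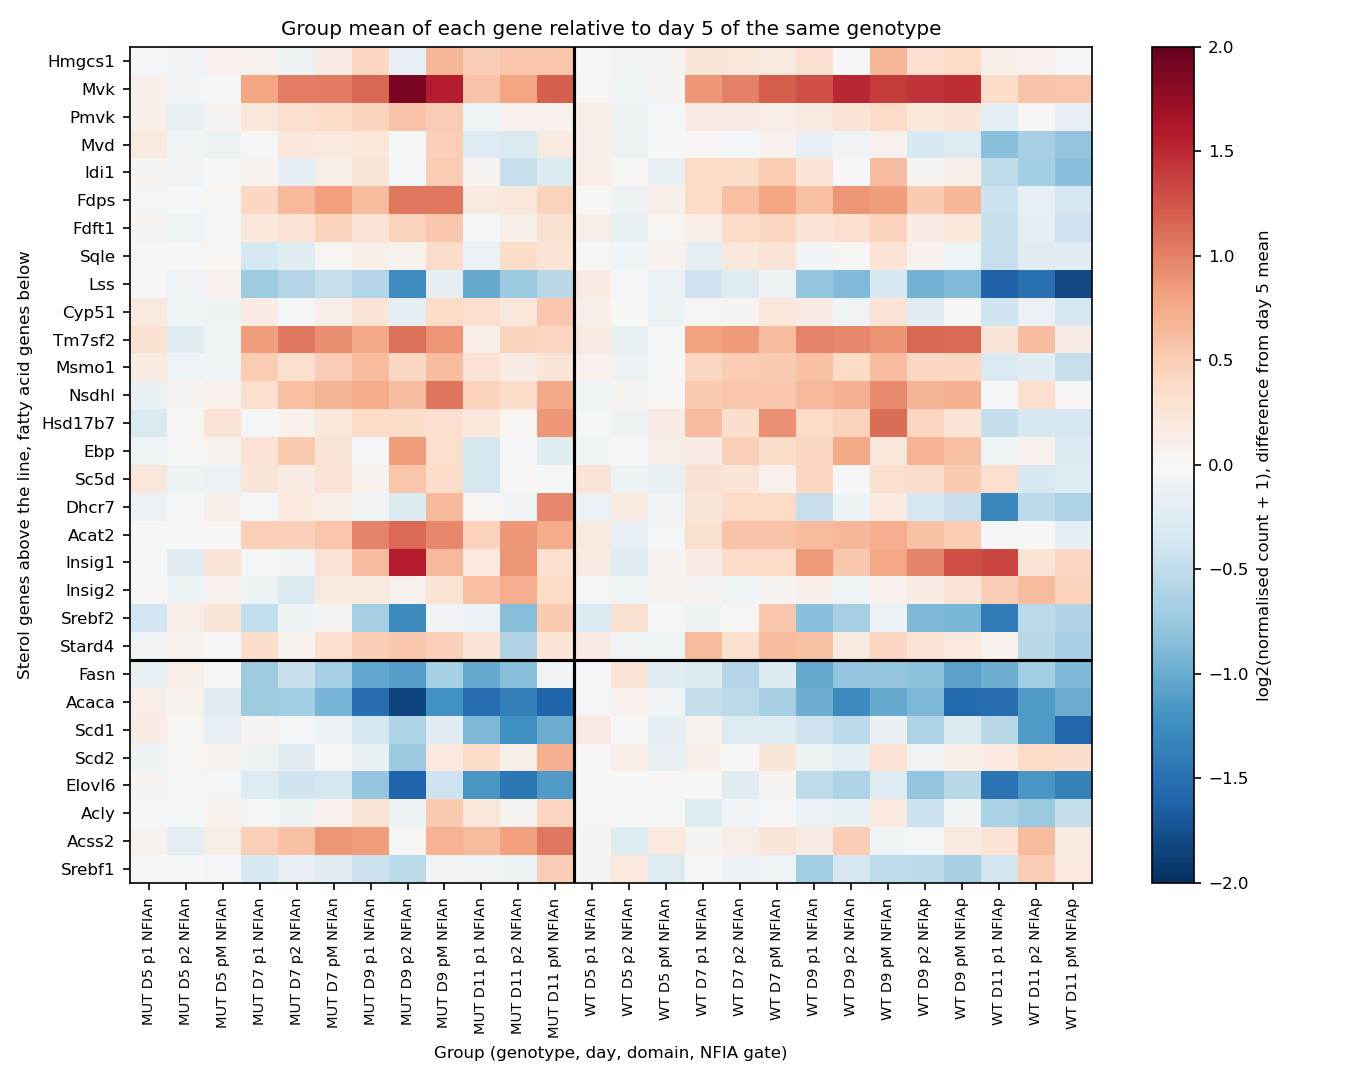
Group mean of log2(normalised count + 1) for each member (rows), as the difference from the D5 mean of the same genotype (colour, log2 units), with MUT groups left of WT groups and days in order (columns); the sterol branch stands above the fatty acid branch. Of the 22 sterol rows 14 are highest on D9 in MUT and 14 in WT when D9 is taken in NFIAn cells, and Scd1 and Elovl6 are lowest on D11 in both genotypes.

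Between D5 and D7 some enzymes of the mevalonate arm and of the steps after lanosterol rose. Others of these steps, Hmgcs1, Pmvk, Mvd, Cyp51, Ebp, Sc5d and Dhcr7, were called in neither genotype. In MUT, 7 of 22 sterol genes were higher on D7 than on D5 and 1 was lower, against 16.5% of all genes higher and 14.3% lower. Mvk, mevalonate kinase, had 1470, 2060 and 3770 normalised counts in its lowest, median and highest libraries of D7, against 1020, 1180 and 1480 in those of D5, a rise of 0.95 ± 0.20 (adjusted p = 0.00023, limma). Tm7sf2, a sterol reductase acting on the newly made ring, had 1370, 1680 and 2970 on D7 and 752, 948 and 1260 on D5, with no overlap between the days (0.94 ± 0.18, adjusted p = 8e-05, limma). Fdps (0.63), which makes farnesyl diphosphate, Nsdhl (0.53), Acat2 (0.50), Msmo1 (0.44) and Fdft1 (0.32) also rose. Lss, lanosterol synthase, fell by 0.59 ± 0.23 (adjusted p = 0.048, limma).

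In WT over the same interval, 10 of 22 sterol genes were higher on D7 than on D5 and 0 were lower, against 10% of all genes tested higher and 9.51% lower. The median difference of the branch was 0.32 with 21 of 22 positive, beside -0.02 over all genes. The largest rise was in Mvk: on D7 its lowest, median and highest WT libraries had 1800, 2350 and 5090 normalised counts, against 1130, 1390 and 1520 on D5 (log2 difference 1.03 ± 0.20, adjusted p = 0.00019, limma). All 9 WT D7 libraries thus stood above all 8 of D5, and the D7 values were widely spread, with replicate 3 of each domain highest. Tm7sf2 rose by 0.77 ± 0.19 (adjusted p = 0.0023, limma), and Hsd17b7, a 3-ketosteroid reductase of the demethylation complex, by 0.63 ± 0.19 (adjusted p = 0.017, limma). Fdps had 18000, 24900 and 46000 normalised counts on D7, against 15700, 17500 and 20200 on D5 (0.59 ± 0.17, adjusted p = 0.012, limma). The other 6 that rose were Nsdhl (0.54), Stard4 (0.52), Msmo1 (0.48), Acat2 (0.48), Idi1 (0.42) and Fdft1 (0.31). Both counts were lower without the 18 libraries of high normalised total, a fit that also lacks replicate 3 of each D7 group. There 7 members of both branches together were called in MUT, against 11 with all libraries (30.8% of all genes with all libraries). In WT 6 were called, against 11 with all libraries (19.6%). Ribosomal protein genes took 14.1% to 19.1% of the normalised counts in the D7 replicate 3 libraries and 5.07% to 9.21% in the other D7 libraries, and the part of this in the D7 values was not tested.

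Between D7 and D9 few members moved. In MUT, Acat2, the cytosolic acetoacetyl-CoA thiolase that opens the pathway, rose by 0.52 (adjusted p = 0.031, limma), the 1 sterol gene called, against 4.93% of all genes higher. It had 21600, 23400 and 25300 normalised counts on D9 in MUT and 14200, 15300 and 19700 on D7, without overlap. The share called, 1 of 22, is near that background, and the call was lost in 9 of 22 alternatives, among them the fit without the 18 libraries of high normalised total. In WT NFIAn cells limma called 0 of 30 members, against 14.4% of all genes; 8 had an unadjusted p under 0.05 (1 higher and 7 lower), and edgeR and DESeq2 each called 2. Without WT D7 pM replicate 3 limma called 4 members, and without WT D7 p1 replicate 3 it called 5.

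Between D9 and D11 in MUT, 1 of 22 sterol genes was lower on D11 than on D9 and 0 were higher, against 3.67% and 5.52% of all genes. The branch median was -0.33 with 16 of 22 negative, beside 0.05 over all genes. Over both branches 11 members were lower at an unadjusted p under 0.05, and DESeq2 called 6 members where limma called 2, or 1 without the 18 libraries of high normalised total. The sterol gene called was Stard4, a carrier of cholesterol between membranes, at -0.52 ± 0.17 (adjusted p = 0.042, limma), a call lost when any of 7 single libraries was left out. Its MUT levels were 333, 627 and 835 on D11 and 699, 836 and 964 on D9, which overlap.

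In WT sterol enzymes fell over these days. In NFIAp cells of p2 and pM, 12 of 22 sterol genes were lower on D11 than on D9 and 0 were higher, against 3.98% of all genes lower and 6.16% higher. The branch median was -0.65 with 20 of 22 negative, beside 0.05 over all genes. Idi1, isopentenyl-diphosphate isomerase, had 2260, 2880, 3470 and 3580 normalised counts in the 4 WT D11 libraries of p2 and pM, against a range of 4600 to 6950 in the 6 of D9 (-0.83 ± 0.17, adjusted p = 0.00047, limma). Stard4 fell by 0.83 ± 0.18 (adjusted p = 0.00099, limma). Fdps fell by 0.84 (adjusted p = 0.011, limma), and its 6 WT D11 libraries, between 13200 and 16400 normalised counts, all stood below the 23600 to 33100 of D9 NFIAp. Mvk fell by 0.90 (adjusted p = 0.022, limma), with 1510 to 2380 on D11 and 3350 to 4360 on D9 NFIAp. These D11 ranges of Fdps and Mvk also include p1, which has no D9 NFIAp group and is outside the tested differences. The others that fell were Tm7sf2 (-0.76), Msmo1 (-0.75), Ebp (-0.73), Sc5d (-0.71), Acat2 (-0.62), Nsdhl (-0.52), Fdft1 (-0.49) and Mvd (-0.45). Leaving out WT D11 pM replicate 2 cut the members called in this interval to 6, leaving out WT D11 p2 replicate 2 to 7, and leaving out the 18 libraries of high normalised total to 9, against 14 with all libraries (10.1% of all genes). The MUT interval covers all 3 domains in NFIAn cells and the WT interval p2 and pM in NFIAp cells, so the 2 counts are given side by side and their difference was not tested.

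Over the whole course from D5 to D11, 6 of 22 sterol genes were higher on D11 than on D5 in MUT and 1 was lower, against 24.1% of all genes higher and 22% lower. The share higher is near the background and the share lower well under it, and the branch median was 0.26, with 15 positive, beside 0.02 over all genes. Mvk rose by 0.85 ± 0.22 (adjusted p = 0.0012, limma), with 1230, 2040 and 4830 normalised counts on D11 and 1020, 1180 and 1480 on D5. Acat2 rose by 0.69 ± 0.15 (adjusted p = 0.00015, limma), with 15800, 18200 and 23600 on D11 and 9270, 12500 and 13600 on D5. Acat2 separated the 2 days fully, whereas Mvk did not. Hmgcs1 (0.54), Nsdhl, a sterol dehydrogenase (0.53), Cyp51, the lanosterol demethylase (0.37), and Insig2 also rose. Lss was the one that fell, by 0.77 ± 0.26 (adjusted p = 0.012, limma): the MUT D11 libraries had 1230 and 2640 in p1, 1610 and 2940 in p2 and 1740 and 3500 in pM, against 2880, 3770 and 4290 on D5.

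In WT over the whole course, the sterol branch ended lower in 7 of 22 genes and higher in 1, against 22.8% of all genes lower and 25.1% higher. The share lower is thus somewhat above the background and the share higher well below it. The branch median was -0.30 with 16 negative, beside 0.04 over all genes. The largest fall was in Lss, which closes squalene epoxide into lanosterol: the WT D11 libraries had 1130 and 1190 normalised counts in p1, 1030 and 1540 in p2, and 631 and 1620 in pM, against 2650, 3730 and 4340 as lowest, median and highest on D5 (-1.64 ± 0.27, adjusted p = 1.3e-06, limma). Each D11 library lay below each D5 library, and the difference by domain was -1.78 (p1), -1.45 (p2) and -1.70 (pM). Mvd, which makes isopentenyl diphosphate, had 1850 and 2660 in the p1 libraries of D11, 2140 and 2940 in those of p2 and 2070 and 2550 in those of pM, against 3120, 4060 and 4830 on D5, again without overlap (-0.77 ± 0.12, adjusted p = 4.8e-07, limma).

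Dhcr7, the reductase of the last step to cholesterol, had 1020 and 871 normalised counts in p1, 1270 and 2060 in p2 and 1180 and 1940 in pM of WT D11, against 1360, 2350 and 3090 on D5 (-0.82 ± 0.20, adjusted p = 0.0006, limma). Idi1 had 3050 and 4160 in p1, 2880 and 3470 in p2 and 2260 and 3580 in pM, against 4320, 4970 and 6710 on D5 (-0.67 ± 0.14, adjusted p = 8.4e-05, limma). The days overlapped for Dhcr7 and did not for Idi1. Stard4 fell by 0.38 ± 0.15 (adjusted p = 0.033, limma) and Fdft1, squalene synthase, by 0.35 ± 0.12 (adjusted p = 0.012, limma). Both of these small falls lost their call when any of the 3 WT D11 replicate 2 libraries was left out. Pmvk, Fdps, Sqle, Tm7sf2, Msmo1, Hsd17b7, Ebp, Sc5d and Insig1 were called in neither genotype over this interval. Of these, Pmvk, phosphomevalonate kinase, ran between 1690 and 4440 normalised counts over all libraries, and Sqle, squalene epoxidase, between 3800 and 12700, and neither was called between any days. Ebp, the sterol isomerase, and Sc5d, the desaturase of the ring, were called only in the WT interval D9 to D11 given above, and Msmo1 is the methyl oxidase of the demethylation steps.

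**Figure D2:**
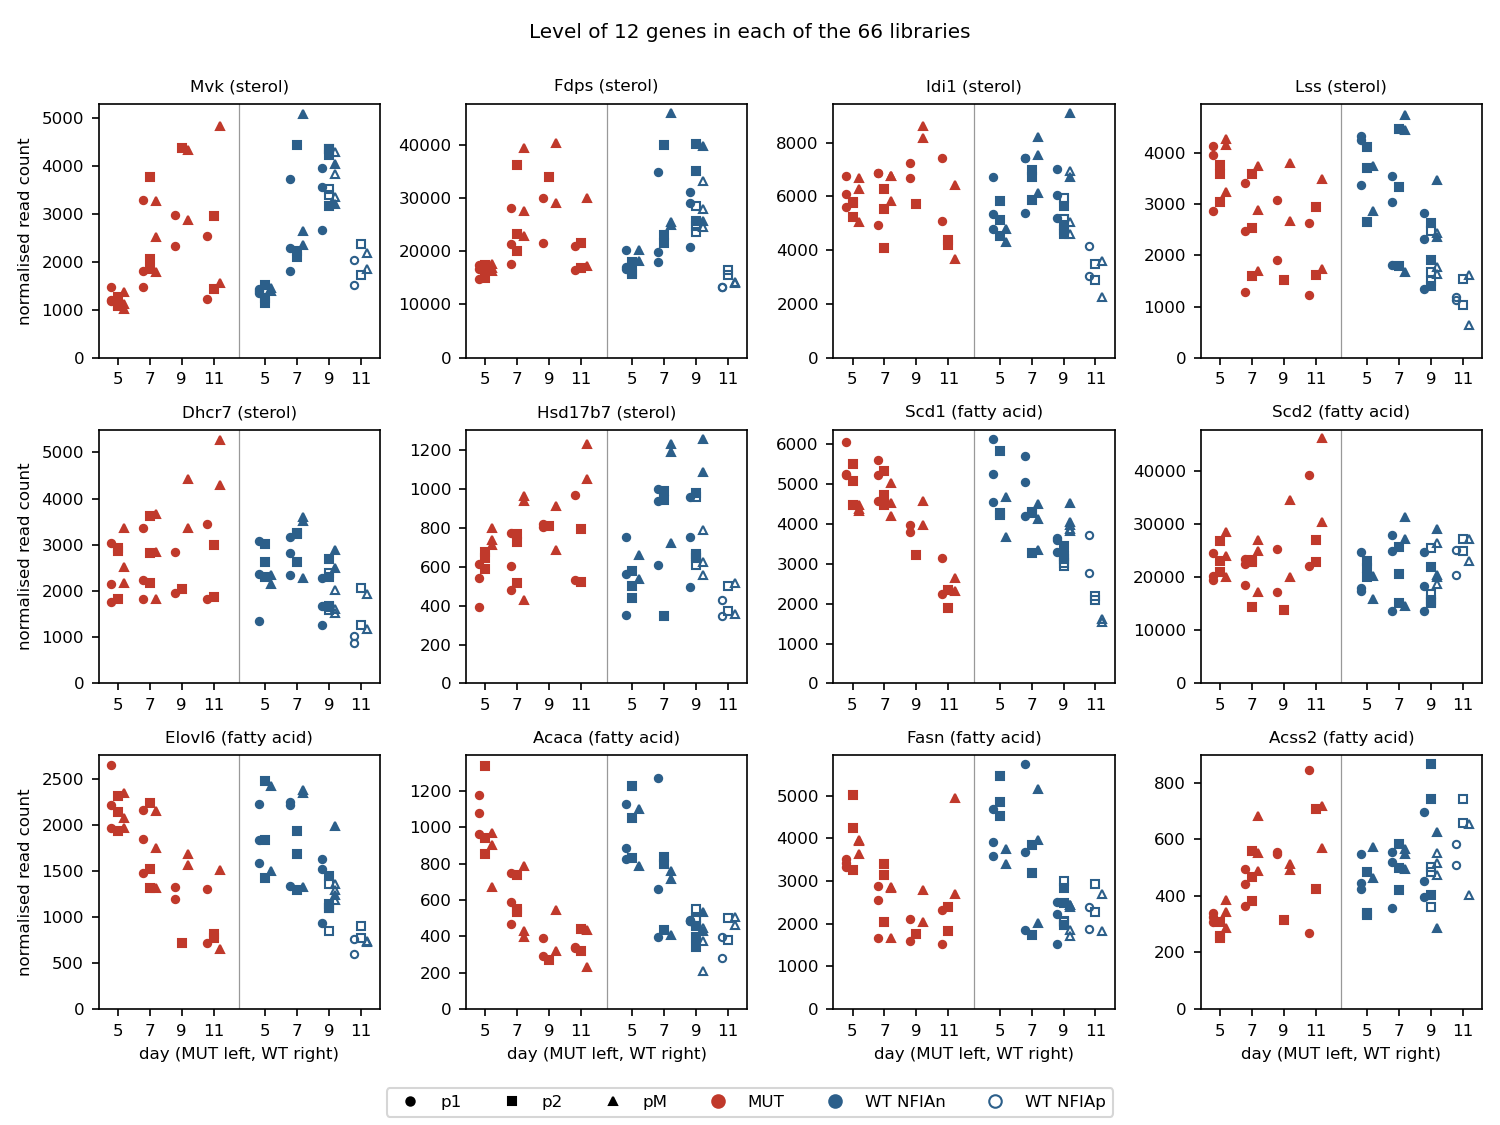
Normalised read count (linear axis from 0) of 12 members by day, MUT left of WT, one mark per library, with the mark's shape giving the domain and open marks the WT NFIAp libraries. Mvk has its highest medians on D9, Lss and Scd1 end below their D5 levels, and Dhcr7 on D11 is between 1830 and 5270 in MUT and between 871 and 2060 in WT.

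The 2 genotypes' courses from D5 to D11 were compared directly as a difference of differences. Of the 30 members, 2 sterol genes were called, both with the higher change in MUT, against 0.77% of all genes in either direction: Dhcr7 at 1.13 ± 0.28 (adjusted p = 0.030, limma) and Mvd at 0.65 ± 0.16 (adjusted p = 0.041, limma). On D5, MUT minus WT was already at -0.38 ± 0.11 for Mvd (unadjusted p = 0.00079, adjusted p = 0.1, limma), and at 0.07 for Dhcr7. Part of the Mvd difference thus lies in the D5 levels, and Mvd was not called between genotypes on D11. The sterol median was 0.48 and the fatty acid median 0.08. Of all members, 12 had an unadjusted p under 0.05, all with the higher change in MUT. Neither call was firm: over 38 alternatives, among them a fit of only the groups compared, that of Dhcr7 was lost in 14 (adjusted p up to 0.13) and that of Mvd in 22 (up to 0.16), and the number called ran between 0 and 3 when single libraries were left out.

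The fatty acid branch had its own course. Its summed level averaged 45400 ± 4020, 41500 ± 7090, 41700 ± 12200 and 50200 ± 14800 normalised counts on D5, D7, D9 and D11 in MUT, and 45400 ± 5530 on D5, 45500 ± 12400 on D7, 39800 ± 8190 in NFIAn and 38600 ± 6550 in NFIAp cells of D9 and 40700 ± 4410 on D11 in WT. Scd2 was the largest part of this sum, with means of 19900 to 31300 in these groups. Of the 8 genes, 4 were highest on D5 and 4 on D11 in MUT, and 5 were highest on D5 and 3 on D11 in WT, with none highest on D7 or D9.

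Gene by gene, 4 of 8 fatty acid genes fell in MUT between D5 and D11 and 1 rose, against 22% and 24.1% of all genes, with a branch median of -0.27. In WT 5 of 8 fell and 0 rose, against 22.8% of all genes lower, with a median of -0.73. Scd1, the stearoyl-CoA desaturase that makes oleate, fell in both. It had 2240 and 3150 normalised counts in p1, 1890 and 2350 in p2 and 2320 and 2650 in pM of MUT D11, against 4320, 5080 and 6060 on D5 (-1.04 ± 0.10, adjusted p = 9.2e-12, limma). In WT D11 it had 3730 and 2760 in p1, 2190 and 2100 in p2 and 1620 and 1530 in pM, against 3680, 4620 and 6140 on D5 (-1.09 ± 0.11, adjusted p = 6.8e-12, limma). The days did not overlap in MUT, and in WT only a p1 library reached the D5 range.

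Elovl6, which lengthens palmitate to stearate, had 713 and 1300 normalised counts in p1, 773 and 816 in p2 and 649 and 1510 in pM of MUT D11, against 1930, 2140 and 2650 on D5 (-1.25 ± 0.18, adjusted p = 1.1e-07, limma). In WT it had 759 and 602, 899 and 773, and 741 and 729 in p1, p2 and pM on D11, against 1420, 1840 and 2480 on D5 (-1.33 ± 0.18, adjusted p = 5e-08, limma). Acaca, the acetyl-CoA carboxylase of the cytosol, had 340 and 335, 320 and 442, and 233 and 438 in the same order in MUT D11, against 671, 966 and 1340 on D5 (-1.50 ± 0.20, adjusted p = 3.7e-08, limma). The D11 libraries of both genes stayed under those of D5 in MUT and in WT. Acaca in WT D11 had 282 and 399, 383 and 499, and 461 and 509, against 787, 969 and 1230 on D5 (-1.22 ± 0.21, adjusted p = 4.5e-06, limma).

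Fasn, fatty acid synthase itself, fell by 0.63 ± 0.20 in MUT (adjusted p = 0.0087, limma) and by 0.85 ± 0.21 in WT (adjusted p = 0.00072, limma). Its lowest, median and highest libraries were 1520, 2350 and 4940 normalised counts on D11 and 3260, 3640 and 5020 on D5 in MUT, and 1830, 2330 and 2920 on D11 and 3400, 4220 and 5450 on D5 in WT; the days overlapped in MUT and not in WT. Acly, which supplies cytosolic acetyl-CoA from citrate, was at 0.24 ± 0.20 in MUT and fell by 0.61 ± 0.21 in WT (adjusted p = 0.012, limma), where D11 had 4930, 6300 and 9440 and D5 had 7510, 9490 and 13800. That call was lost without WT D11 p2 replicate 2 (adjusted p = 0.052, limma) or pM replicate 2 (0.083). Acss2, which makes acetyl-CoA from acetate, rose in MUT by 0.83 ± 0.19 (adjusted p = 0.00025, limma), with 270, 639 and 846 on D11 and 251, 309 and 386 on D5. In WT it was at 0.36 ± 0.19 (adjusted p = 0.12, limma). Its D11 means were 589 in MUT and 591 in WT, and its D5 means 312 and 459. The genotypes thus stood apart on D5 rather than on D11, with MUT minus WT on D5 at -0.55 ± 0.17 (unadjusted p = 0.0031, adjusted p = 0.21, limma).

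Falls within the fatty acid branch were spread over the course. Acaca fell already between D5 and D7, by 0.78 ± 0.18 in MUT (adjusted p = 0.0011, limma) and by 0.56 ± 0.19 in WT (adjusted p = 0.031, limma); in MUT, Fasn fell by 0.60 ± 0.18 and Acss2 rose by 0.65 ± 0.17 in the same interval. The WT call for Acaca was lost in 10 of 26 alternatives. In MUT, 3 fatty acid genes were lower on D9 than on D7, Acaca (-0.74), Elovl6 (-0.59) and Scd1 (-0.36), against 4.78% of all genes. These calls were not firm: with Acat2, 4 members were called in this interval, 2 with only the groups compared and 0 without the 18 libraries of high normalised total, and leaving out single libraries gave 0 to 4, with 0 left without D7 p2 replicate 1, D7 pM replicate 1 or D9 pM replicate 3. Between D9 and D11 Scd1 fell by 0.65 ± 0.12 in MUT (adjusted p = 0.00038, limma) and by 0.91 ± 0.13 in WT NFIAp (adjusted p = 1.4e-06, limma). All D7 replicate 3 libraries were low for this branch: 1, 0 and 0 of 8 genes were above the mean of the other 2 replicates in MUT p1, p2 and pM, and 1, 0 and 1 in WT, where 41.3% to 45.8% of all genes were. These are the libraries of high ribosomal protein share given above.

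**Figure D3:**
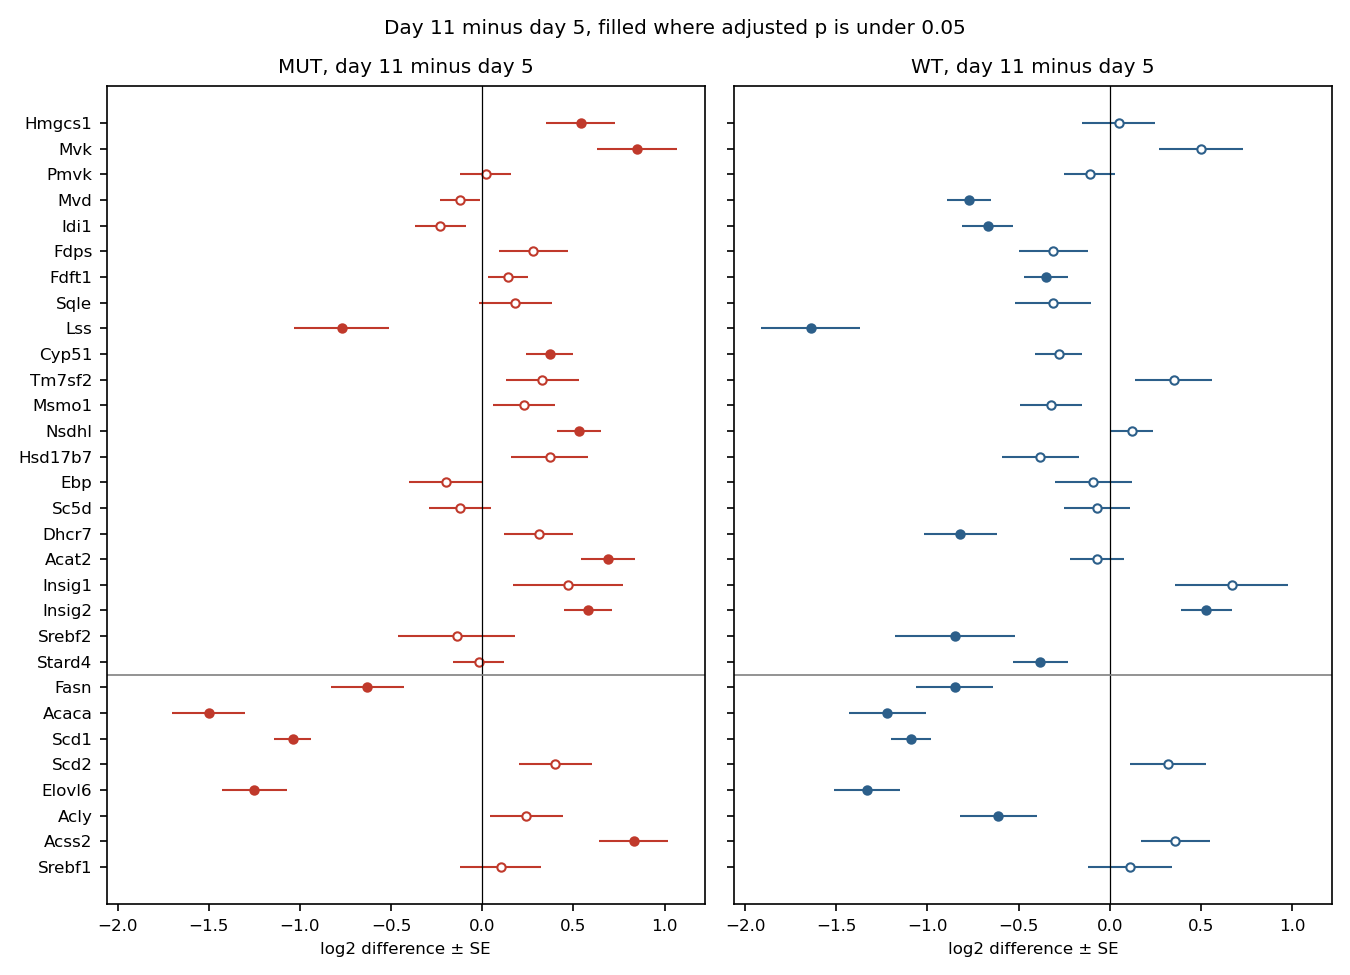
Log2 difference D11 minus D5 of each member with its standard error, MUT in the left panel and WT in the right, ordered by branch; filled points are past an adjusted p of 0.05 (limma). Scd1, Elovl6, Acaca, Fasn and Lss are lower in both genotypes, and Mvd, Dhcr7 and Idi1 in WT.

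The desaturase genes Scd1 and Scd2 lie near each other on chromosome 19 (mm10 coordinates of GENCODE M21, Scd2 at 44293674 to 44306864 on the plus strand and Scd1 at 44394455 to 44407879 on the minus strand). Scd1 fell between D5 and D11 as given above. Scd2 had 22100, 28700 and 46200 normalised counts on D11 and 19400, 23100 and 28500 on D5 in MUT (0.40 ± 0.20, adjusted p = 0.099, limma), and 20400, 25100 and 27300 on D11 and 15900, 20100 and 24700 on D5 in WT (0.32 ± 0.21, adjusted p = 0.21, limma). Neither difference passed the test. Per kilobase of exon, Scd2 averaged 5730 ± 1750 normalised counts and Scd1 497 ± 87.2 in MUT D11 (SD, n = 6), and 4520 ± 489 and 475 ± 168 in WT D11 (SD, n = 6), so Scd2 was the more abundant message per length. On D5 the WT values were 3690 ± 544 and 988 ± 172 (SD, n = 8). Recovered reads were whole numbers, and how the counting treated reads that match both genes is not given.

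Of the 4 regulators, Insig2 was called higher on D11 than on D5 in both genotypes and Srebf2 lower in WT. Srebf2, the sterol factor, had 2370 and 7090 normalised counts in p1, 1900 and 3210 in p2 and 4400 and 9280 in pM of MUT D11, against 2660, 4650 and 6790 on D5 (-0.14 ± 0.32). In WT D11 it had 1970 and 1110, 2110 and 3440, and 1830 and 3660, against 1680, 3880 and 5730 on D5 (-0.85 ± 0.33, adjusted p = 0.031, limma). The WT days overlapped widely, and the call was lost in 6 of the fits that each left out a library, among them that without WT D11 p1 replicate 3 (-0.71, adjusted p = 0.11, limma). Srebf1, the fatty acid factor, had 1830, 2910 and 3960 on D11 and 2050, 2580 and 3140 on D5 in MUT. It had 2240 and 2050, 3750 and 4020, and 2520 and 4010 in p1, p2 and pM of WT D11, against 1880, 3090 and 3900 on D5 (0.11 ± 0.23, adjusted p = 0.73, limma). Against D9 NFIAp, where p2 had 2570, 1680 and 1660 and pM had 2130, 1440 and 1710, it rose by 0.94 ± 0.27 (adjusted p = 0.017, limma), the 1 fatty acid gene to do so while Scd1 fell.

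Insig1 and Insig2 code for the proteins that retain the SREBP factors. Insig2 rose in both genotypes: it had 769, 1120 and 1300 normalised counts on D11 and 615, 682 and 834 on D5 in MUT (0.58 ± 0.13, adjusted p = 0.00034, limma), and 671, 903 and 1190 on D11 and 489, 618 and 783 on D5 in WT (0.53 ± 0.14, adjusted p = 0.0013, limma). The days overlapped in both. It was the 1 sterol branch gene called higher on D11 in WT. Insig1, itself a target of the factors, rested on single libraries. In MUT D11 it had 2210 and 3270 in p1, 2930 and 6360 in p2 and 2420 and 3610 in pM. In WT D11 it had 1530 and 17200 in the 2 p1 libraries, 2040 and 3010 in p2 and 2380 and 3110 in pM, against 1670, 1830 and 3450 on D5 (0.67 ± 0.31, adjusted p = 0.07, limma). The value of 17200 came from WT D11 p1 replicate 3, the library that also had the highest Sc5d level of D11, 6010 against 1720 in its partner. Without that library the difference was 0.09 (adjusted p = 0.81, limma), and without its p1 partner 1.25 (0.00012). edgeR and DESeq2 called the Insig1 difference (adjusted p = 0.013 and 0.0046). In WT D9 NFIAp Insig1 had 4130, 2340 and 6690 in p2 and 11600, 2520 and 4300 in pM. Per kilobase, Insig1 averaged 675 ± 193 and Insig2 184 ± 27.8 normalised counts in WT D5 (SD, n = 8).

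MUT and WT cells were set against each other on each day. On D5, D7 and D9 (both NFIAn), limma called 0 of 30 members each, against 0.458%, 2.03% and 0.7% of all genes. The members at an unadjusted p under 0.05 numbered 4, 1 and 0, all lower in MUT. Those of D5 were Mvd, Acss2, Pmvk and Acly, and that of D7 was Mvd. On these days edgeR called none, and DESeq2 called 1, 0 and 0. Dhcr7 on D9 was at 0.30 ± 0.22.

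On D11, 6 of 22 sterol genes were higher in MUT than in WT and 0 were lower, against 1.8% of all genes higher and 2.34% lower, and 17 of 22 differences were positive with a median of 0.45, beside 0.00 over all genes. No fatty acid gene was called, with a median of 0.10. In all, 16 of 30 members had an unadjusted p under 0.05, all higher in MUT; edgeR called 6 and DESeq2 8. Dhcr7 differed most: the MUT libraries had 1830 and 3460 normalised counts in p1, 1860 and 2990 in p2 and 4300 and 5270 in pM, against 1020 and 871, 1270 and 2060, and 1180 and 1940 in WT (1.21 ± 0.21, adjusted p = 0.00018, limma). The groups overlapped where the highest WT libraries of p2 and pM met the lowest MUT libraries of p1 and p2. Hsd17b7 had 533 and 971, 521 and 794, and 1050 and 1230 in MUT, against 431 and 347, 373 and 501, and 356 and 519 in WT, with no overlap (0.96 ± 0.23, adjusted p = 0.0072, limma).

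Cyp51 had 6460 and 9940, 7830 and 7090, and 7700 and 11100 normalised counts in p1, p2 and pM of MUT D11, against 4810 and 4490, 4800 and 6620, and 4090 and 5750 in WT (0.71 ± 0.14, adjusted p = 0.00088, limma). Idi1 had 5070 and 7420, 4380 and 4180, and 3690 and 6410 in MUT, against 3050 and 4160, 2880 and 3470, and 2260 and 3580 in WT (0.66 ± 0.15, adjusted p = 0.004, limma). Both pairs of ranges met only at their edges. Acat2 (0.57 ± 0.16) and Fdft1 (0.44 ± 0.13) were also higher, each at an adjusted p of 0.031 (limma). Lss was at 0.91 ± 0.28 (adjusted p = 0.054, limma), Hmgcs1 at 0.65 (0.063), Srebf2 at 0.88 ± 0.35 (0.16), Insig1 at 0.00 ± 0.33 and Tm7sf2 at -0.37 (0.39).

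The D11 count leans on the spread shared over all groups. With the D11 libraries fitted alone, 0 members were called, and the adjusted p-values were 0.082 for Dhcr7, 0.11 for Hsd17b7, 0.15 for Cyp51 and 0.22 for Idi1 (limma), while 3 were called without MUT D11 p1 replicate 3, 7 without WT D11 p1 replicate 3, and 12 without the 18 libraries of high normalised total, none of which is from D11. MUT cells were NFIAn and WT cells NFIAp on this day; where the gate could be compared within WT, on D9, 0 of 30 members were called by limma, edgeR or DESeq2, against 0.204% of all genes, and 1 had an unadjusted p under 0.05. There Dhcr7 was at -0.45 ± 0.22, Hsd17b7 at -0.44 ± 0.24, Idi1 at -0.23, Cyp51 at -0.21, Fdft1 at -0.21 and Acat2 at -0.16 for NFIAp minus NFIAn. These are the genes called on D11, and each was lower in NFIAp on D9, though none was called there. The part of the gate in the D11 differences was not tested.

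**Figure D4:**
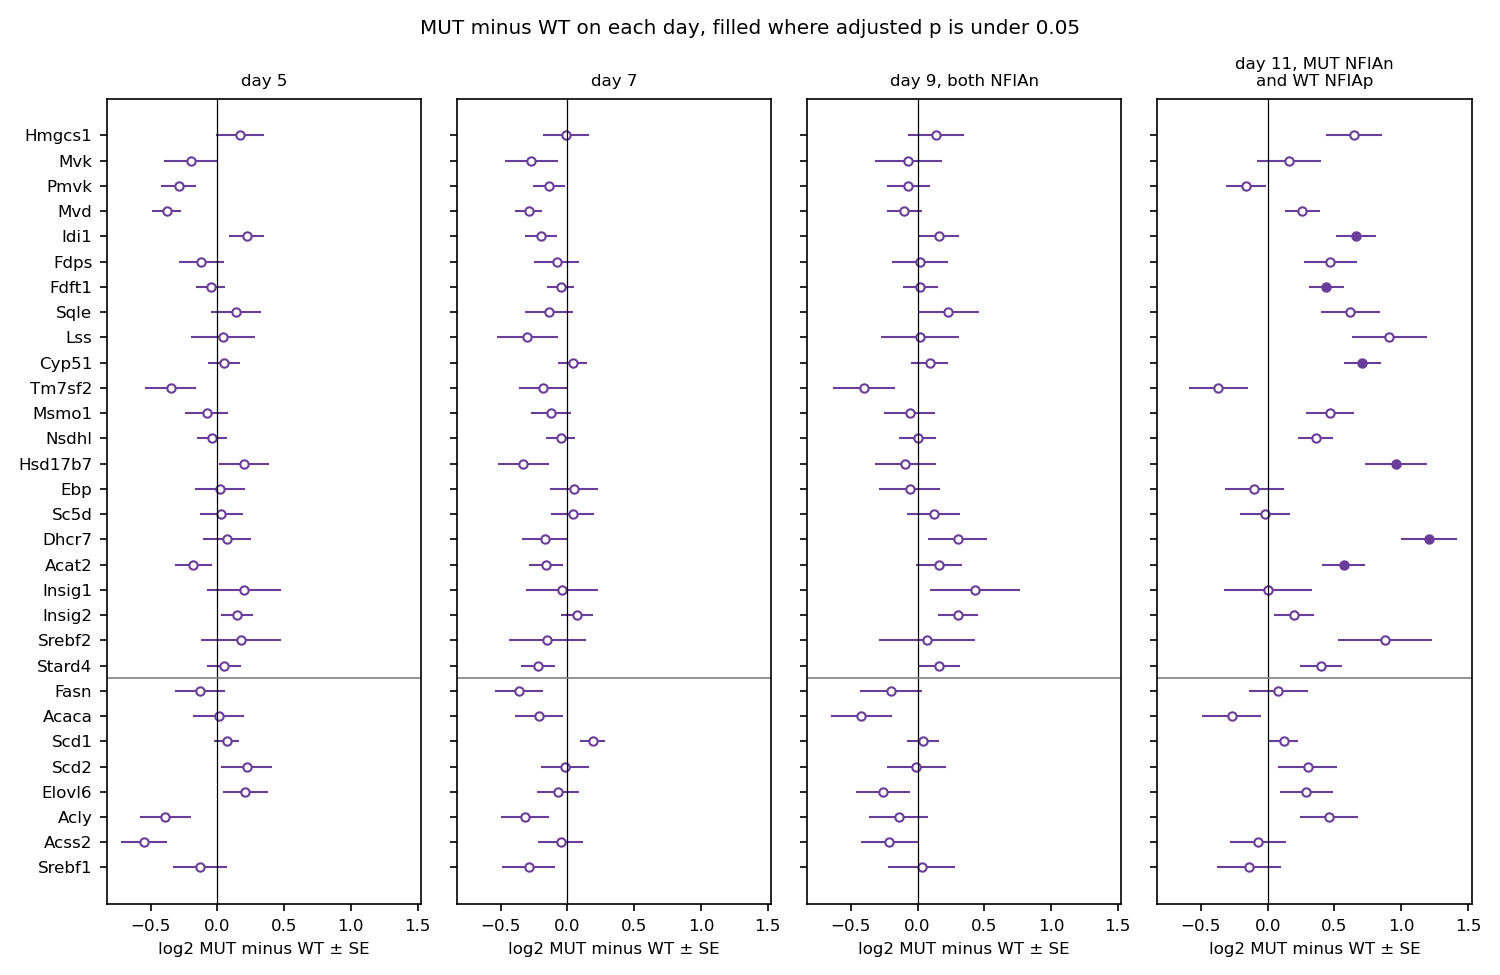
Log2 difference MUT minus WT of each member with its standard error on D5, D7, D9 (NFIAn) and D11; filled points are past an adjusted p of 0.05 (limma). The filled points are the 6 sterol genes Dhcr7, Hsd17b7, Cyp51, Idi1, Acat2 and Fdft1 on D11.

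The D11 difference was also followed library by library. When MUT and WT libraries of the same domain and replicate number were set side by side, which the labels do not say share a culture, 9 of 22 sterol genes were higher in MUT in all 6 pairs and 16 in at least 5. Those 9 were Hmgcs1, Idi1, Fdps, Sqle, Lss, Cyp51, Msmo1, Hsd17b7 and Dhcr7. Over the replicate 2 pairs 22 of 22 sterol means were above 0 (median 0.59), and over the replicate 3 pairs 15 of 22 (median 0.24). Of the fatty acid genes, 1 of 8, Acly, was higher in all 6 pairs. The means were above 0 in 1 of 8 over replicate 2 (median -0.21) and in 7 of 8 over replicate 3 (median 0.40). The replicate 2 pair of pM differed from those of p1 and p2. There Fasn (0.56), Scd1 (0.52), Acly (0.51), Acss2 (0.5), Scd2 (0.41) and Srebf1 (0.32) were above 0. Acaca (-0.98) and Elovl6 (-0.19) were below 0 in that pair. In MUT D11 the fatty acid genes stood higher in replicate 3 than in replicate 2, in 7, 8 and 8 of 8 genes in p1, p2 and pM, where 50.5% to 52.5% of all genes did; in WT D11 this was 2, 4 and 6 of 8. Ribosomal protein genes took 2.48% to 4.9% of the normalised counts in the D11 replicate 3 libraries and 5.87% to 10% in those of replicate 2, and their part in these patterns was not tested.

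**Figure D5:**
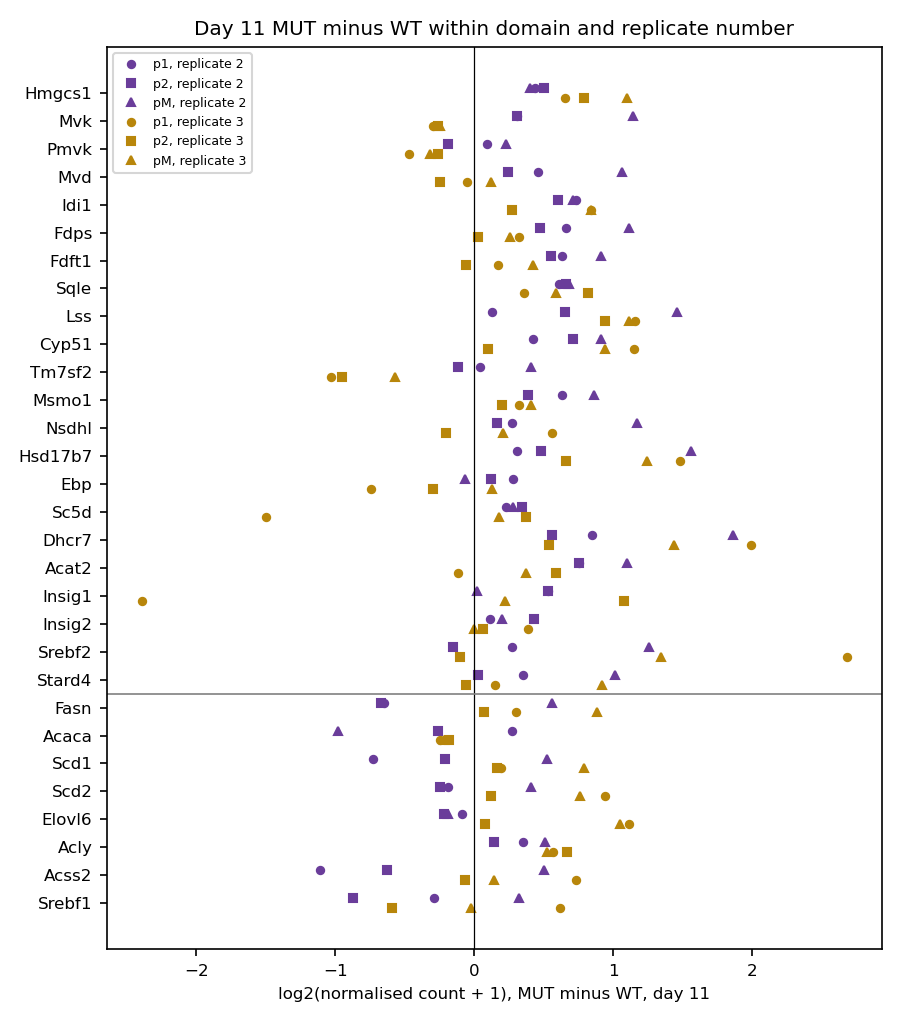
Log2 difference MUT minus WT on D11 for each member in the 6 pairs of libraries with the same domain and replicate number, one mark per pair, with replicate 2 and replicate 3 shown apart. Sterol genes lie mostly above 0 in both replicates. Fatty acid genes lie mostly below 0 in replicate 2 of p1 and p2, and mostly above 0 in replicate 2 of pM and in replicate 3.

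No member was called between neighbouring domains. In WT, limma called 0 of 30 members for p2 minus p1, against 1.83% of all genes, and 0 for pM minus p2, against 2.46%; 4 and 1 members had an unadjusted p under 0.05, edgeR called none and DESeq2 called 2 and 0. Without WT D11 p1 replicate 2, limma called 3 members lower in p2 than in p1. The F test of the D11 minus D5 change among WT domains called 0 of 30 members, against 0.891% of all genes, with 1 member, Scd1, at an unadjusted p of 0.041 (limma F test, adjusted p = 0.67). By domain the change of Scd1 was -0.72 (p1), -1.14 (p2) and -1.40 (pM). On D11 alone WT Scd1 was lower in pM than in p1, at -1.03 ± 0.20 (adjusted p = 0.00083, limma), against 1.24% of all genes lower. Taken by domain, the D11 difference between MUT and WT was called in pM alone, for Dhcr7 (1.65 ± 0.37, adjusted p = 0.0088, limma) and Cyp51, against 1.43% of all genes in pM; Dhcr7 was at 1.42 in p1 and 0.55 in p2, and whether the domains differ in this was not tested.

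Larger differences were found among genes around the pathway. Among 13 genes of sterol feedback and of other sterol steps, 1 rose and 6 fell in MUT between D5 and D11, and 3 rose and 6 fell in WT. Over all genes 24.1% rose and 22% fell in MUT, and 25.1% rose and 22.8% fell in WT, so that the share that rose in WT is near the background. Lbr, a sterol reductase of the nuclear envelope, was at -1.76 ± 0.20 in WT (called, limma). Among 14 genes of sterol export, storage and transport, 6 rose and 1 fell in MUT, and 7 rose and 2 fell in WT, against the same shares of all genes. Abca1, the cholesterol exporter, averaged 1280 on D11 and 52.5 on D5 in WT (4.62 ± 0.28); Abcg4, another exporter, was at 2.69 and Cyp46a1, the 24-hydroxylase that readies brain cholesterol for export, at 2.56 ± 0.42.

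Among 26 other enzymes and carriers of fatty acids, 8 rose and 1 fell in MUT between D5 and D11, and 6 rose and 5 fell in WT, against 24.1% of all genes higher and 22% lower in MUT and 25.1% and 22.8% in WT; the WT counts are near this background. Fabp7, a fatty acid carrier of radial glia, was at 8.59 in WT, Thrsp, a lipogenic nuclear protein, at 6.66 and Acsl4, an acyl-CoA synthetase, at -0.89. Thrsp averaged 0.784 normalised counts in MUT D11 against 288 in WT D11 (-7.40), Fabp7 differed by -1.74 and Me1, malic enzyme, by -1.12. Of 12 genes of fatty acid oxidation, 9 rose in MUT and 9 in WT, with none lower, against the same background. Cpt1a, which admits fatty acids to mitochondria, averaged 305 on D11 and 1.19 on D5 in WT (7.55 ± 0.73), and its change was 5.17 ± 0.71 in MUT; log2 differences of genes this close to 0, Thrsp included, depend on the pseudocount. Between genotypes on D11, the oxidation genes Acaa2 (-0.66) and Acadl (-0.51) were lower in MUT (called, limma).

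Markers of other cell types and of cycling moved between D5 and D11, and some of them differed between genotypes on D11. Between D5 and D11 in WT, 12 of 12 neuronal, 8 of 9 tested astroglial and 6 of 10 mesenchymal markers rose, and 12 of 12 S phase and 12 of 12 G2 and M phase genes fell, against 25.1% of all genes higher and 22.8% lower. The summed astroglial level was 25600 to 84100 normalised counts in MUT D11, 74000 to 193000 in WT D11 and 6290 to 14100 in WT D5. Neuronal sums were 27100 to 34600 in MUT D11, 20300 to 39400 in WT D11 and 1970 to 13700 in WT D5, and S phase sums were 36100 to 54800, 24200 to 45700 and 95600 to 139000 in the same 3 groups. On D11, 6 of 9 astroglial markers were lower in MUT than in WT, 6 of 12 S phase genes and 1 of 12 neuronal markers were higher, and no G2 and M phase or mesenchymal gene was called, against 1.8% of all genes higher and 2.34% lower. Gfap, an astrocyte marker, and Mog, of myelin, were under the filter. Summed oligodendrocyte lineage markers had 2090 to 4710 normalised counts in MUT D11, 2920 to 8040 in WT D11 and 557 to 1150 in WT D5. The part of these cell markers in the sterol and fatty acid differences was not tested.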

How the data were processed

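Polyadenylated RNA of 66 libraries was analysed from a single table. Per the labels, reads had been aligned to mm10 and normalised with DESeq2 (per the submitters' processing notes). Version and aligner are not given in the sources used here, and the counter only as featurecounts in the name of the deposited table. In the deposited table, signal values are gene read counts divided by the size factor of each library by the authors. Division by the value of 1 read gave whole reads within 0.01 for all values, and the sums of these recovered reads are the depths given. The kit's strandedness was not used, so overlapping antisense reads cannot be separated.

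Genes with at least 10 normalised counts in at least 2 libraries (15714) were tested with limma 3.58.1 (R 4.3.3, trended variance) on log2(value + 1), with 26 group means fitted over all 66 libraries and Benjamini-Hochberg adjustment over all genes; a fold change on this scale understates that of low genes. The script was tested on simulated data. Alternatives were a pseudocount of 8, no filter (19421 genes), TMM scaling, edgeR 4.0.16 and DESeq2 1.42.0 on recovered reads, only the groups compared, replicate number as a block, the 18 libraries of high normalised total left out, and each library left out. Members, lists and tests were chosen with earlier results of these data known. All members are named. Values by library are given for Srebf1, Srebf2, Insig1, Insig2, Scd1, Scd2 and the largest changes of WT D11 minus D5 in each branch, and other comparisons name the 4 largest calls; Stard4, Fdps, Acss2 and Sc5d are given more values than this rule asks, chosen after they were seen. Some results on genes outside the members are not reported here.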

Additional observations from a re-analysis of the deposited data

Results flagged for a closer look

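For 2 sterol genes the change between D5 and D11 was called different in MUT and WT, by the test of that difference itself. Dhcr7, the last reductase of cholesterol synthesis, differed by 1.13 ± 0.28 on the log2 scale (adjusted p = 0.030, limma), being at 0.31 in MUT and -0.82 in WT. Mvd, which makes isopentenyl diphosphate, differed by 0.65 ± 0.16 (adjusted p = 0.041, limma), being at -0.12 in MUT and -0.77 in WT. Part of the Mvd difference lies in the D5 levels, where MUT minus WT was at -0.38 ± 0.11 (adjusted p = 0.1, limma). Both calls were lost with only the groups compared, that of Dhcr7 in 14 and that of Mvd in 22 of 38 alternatives, and on D11 genotype and gate cannot be told apart. Groups held at most 3 libraries, so single far-off libraries were not tested for.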

How the results depend on the processing

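Over 42 results of single members, 992 alternative values were computed: 868 kept direction and side of the threshold, 116 kept the direction and lost the call, 7 gained one, and 1 turned round, Srebf1 in WT D11 minus D5, at -0.01 without WT D11 pM replicate 3 against 0.11 (up to 0.22 with another library left out). Counts of members called moved more. WT D7 minus D5 (11) gave 6 with only the groups compared, 6 with a replicate block within days and 6 without the 18 libraries of high normalised total, and 7 to 12 with single libraries left out. WT D9 minus D7 (0) gave 2 by edgeR, 2 by DESeq2, 4 with a replicate block, 3 without the 18 libraries and 0 to 5 with single libraries left out (5 without WT D7 p1 replicate 3). WT D11 minus D9 (14) gave 9 without the 18 libraries and 6 to 12 with single libraries left out, and WT D11 minus D5 (13) gave 9 to 14. MUT D7 minus D5 (11) gave 7 without the 18 libraries and 9 to 12 with single libraries left out. MUT D9 minus D7 (4) gave 2 by edgeR, 2 with only the groups compared, 0 with the block within days, 0 without the 18 libraries and 0 to 4 with single libraries left out. MUT D11 minus D9 (2) gave 4 with TMM, 6 by DESeq2, 0 with only the groups compared, 9 with a replicate block, 1 with the block within days, 1 without the 18 libraries and 1 to 7 with single libraries left out; MUT D11 minus D5 (12) gave 10 to 12. MUT minus WT gave on D5 (0) 1 by DESeq2, 4 with only the groups compared and 3 with the block within days, and on D7 (0) 1 with the block within days. On D11 (6) it gave 0 with only the groups compared, 15 with the replicate block within days, 12 without the 18 libraries and 3 to 7 with single libraries left out. The difference of differences (2) gave 4 by DESeq2, 0 with only the groups compared, 4 with a replicate block, 10 with the block within days and 0 to 3 with single libraries left out. WT p2 minus p1 (0) gave 1 with a pseudocount of 8, 1 with no filter, 2 by DESeq2, 2 with a replicate block, 3 with the block within days and 0 to 3 with single libraries left out. The cause was not tested. Deviations from the group means correlated over 0.1 in 74 of 93 pairs of same-numbered libraries of a day (median 0.155, lowest 0.00915). For pairs of different numbers this was 21 of 186 (median -0.0949). Deviations of a group sum to 0, which draws the pairs of different numbers below 0, so they are no separate baseline. The fit with the block within days estimated a correlation of 0.323. The same-numbered pairs are a hint from the data that numbers share something within a day. The labels do not say so and not every pair passed 0.1, the condition set for a paired analysis, so the fits without a block are the ones reported. TMM moved the median of all genes by at most 0.047 in size. With 2 libraries in each D11 group, the D11 calls rest on the spread borrowed from all groups, and small differences were not detectable.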
